A study of Mus musculus with 6 samples.

Results

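The killer cell lectin-like receptor (Klr) cluster of mouse chromosome 6, also called the natural killer (NK) gene complex, was described here by its chromatin contacts in B-cell progenitors. Its members were all genes of the mm10 annotation whose symbol starts with Klr and that lie between 128300000 and 131400000 on chromosome 6. There were 29 such genes of 55450 annotated, 4 of them pseudogenes, and the first and last gene bodies spanned chr6:128609227-131247362. They started in 15 of the 26731 bins of about 100 kb in which contacts were counted, and all 15 bins passed the coverage filter. The run from the first to the last gene covered 27 bins, and 10 bins on each side were taken as the proximal flank (towards the centromere) and the distal flank. The membership rule used position and symbol only, and no contact value.

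NK cells read the surface of other cells through C-type lectin-like receptors coded in this cluster, and the balance of activating and inhibitory members sets whether a target cell is killed. The Klrb genes code for the NKR-P1 receptors, whose ligands are the Clec2 lectins coded between them; Klrb1c is the NK1.1 antigen that marks NK cells of C57BL/6 mice. Klrd1 (CD94) pairs with Klrc1 (NKG2A, inhibitory) or Klrc2 (NKG2C, activating) to read a nonclassical MHC class I molecule, and Klrk1 (NKG2D, activating) binds stress-induced ligands. The Klra genes code for the Ly49 receptors, many of which bind classical MHC class I and are expressed by each NK cell in its own combination. Erg is an ETS family transcription factor, and ETS factors recognise DNA around a GGAA core. Most of these receptors are known from NK cells and some T cells, and not as receptors of B-cell progenitors.

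In situ Hi-C, which ligates and sequences pairs of restriction fragments that lie close together in the nucleus, had been done on 6 libraries, 2 for each genotype. Erg KO cells carried Rag1CreT/+;Erg fl/fl, the CreT control carried Rag1CreT/+ with no floxed Erg allele in its label, and the Erg fl/fl control had floxed Erg alleles with Rag1Cre+/+, that is, without Cre. Cre driven from Rag1 acts in lymphoid progenitors, so deletion is limited to cells that have switched Rag1 on. All mice were labelled as of C56BL/6 background, and both sexes were used: the male libraries were replicate 2 of Erg KO and replicate 2 of the Erg fl/fl control, and the other 4 were female. Lineage-negative bone marrow had been grown for 8 days on OP9 stromal cells, a mouse feeder line, with SCF, IL7 and FL, and B220+ cells were then selected. The paper reports that B-cell development stops at the pre-proB stage without Erg. Its Hi-C figure sets Erg KO pre-proB cells against wild-type proB cells. Genotype and developmental stage therefore cannot be told apart in the comparisons of Erg KO with controls. Hi-C counts hold no expression, so the labelled cell type could not be checked against markers, and read pairs from feeder cells cannot be told apart from those of the progenitors. Libraries held 58335904 and 57259415 read pairs in Erg KO, 62155453 and 68085468 in the CreT control, and 43924865 and 29014581 in the Erg fl/fl control. Contacts between chromosomes made up 32.3% and 34.6% of the read pairs on autosomes in Erg KO, 24.7% and 26.8% in the CreT control, and 24.3% and 21.6% in the Erg fl/fl control, so the groups did not overlap. Erg fl/fl control replicate 2 was the shallowest library and stood at the edge of the controls on many of the measures that follow.

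The cluster was split into 3 parts by the genes that start in them. The Klrb part (6 bins, chr6:128599965-129199875) held Klrb1a, Klrb1, Klrb1c, Klrb1b, Klrb1f and the pseudogene Klrb1-ps1. The Klrc/Klrk part (3 bins, chr6:129500069-129799539) held Klre1, Klrd1, Klrk1, Klrc3, Klrc2, Klrc1, Klri1, Klri2 and Klrh1, the last annotated as Gm156. Between them lay 3 bins with Cd69 and other C-type lectin genes such as Clec12a and Clec9a. The Klra part (15 bins, chr6:129799536-131299788) held 14 genes in 7 bins, from Klra17 to Klra1 and, after a long stretch with no Klr gene, Klra2.

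Promoter sequences are shown because the paralogs are alike enough to bear on read mapping. In addition, GGAAG, a form of the core that ETS factors read, can be looked for in them. RefSeq (GRCm38.p6) gave a promoter for 23 of the 29 genes. The 250 bases before the RefSeq start are printed in lower case, 5′ to 3′ on the strand of the gene, with GGAAG or its reverse complement CTTCC in capitals. Klrb1c and Klrb1a lie in bins that lost local contacts in Erg KO cells, Klra17 and Klra2 in bins that gained them, and Klra3 and Klra9 are the most alike pair:
Klrb1c (chr6:128788642-128788891, minus strand): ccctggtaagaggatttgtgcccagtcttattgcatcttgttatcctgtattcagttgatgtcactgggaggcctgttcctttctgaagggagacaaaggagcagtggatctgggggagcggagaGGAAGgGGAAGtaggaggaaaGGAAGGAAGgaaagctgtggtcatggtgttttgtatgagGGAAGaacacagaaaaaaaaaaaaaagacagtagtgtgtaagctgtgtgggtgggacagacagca
Klrb1a (chr6:128622935-128623184, minus strand): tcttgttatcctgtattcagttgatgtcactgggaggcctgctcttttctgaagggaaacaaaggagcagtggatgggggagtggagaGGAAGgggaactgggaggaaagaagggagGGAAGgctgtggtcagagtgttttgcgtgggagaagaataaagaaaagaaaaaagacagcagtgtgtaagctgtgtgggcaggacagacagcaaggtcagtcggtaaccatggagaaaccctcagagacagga
Klra17 (chr6:129876673-129876922, minus strand): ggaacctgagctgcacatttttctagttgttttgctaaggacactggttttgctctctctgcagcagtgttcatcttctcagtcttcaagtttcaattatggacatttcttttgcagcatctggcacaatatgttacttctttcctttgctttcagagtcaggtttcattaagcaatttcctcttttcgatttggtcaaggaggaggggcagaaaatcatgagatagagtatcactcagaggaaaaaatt
Klra2 (chr6:131247363-131247612, minus strand): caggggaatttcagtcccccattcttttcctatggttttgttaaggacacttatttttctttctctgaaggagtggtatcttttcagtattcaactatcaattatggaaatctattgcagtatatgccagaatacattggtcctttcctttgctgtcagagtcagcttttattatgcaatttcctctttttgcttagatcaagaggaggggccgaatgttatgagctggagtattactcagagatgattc
Klra3 (chr6:130337627-130337876, minus strand): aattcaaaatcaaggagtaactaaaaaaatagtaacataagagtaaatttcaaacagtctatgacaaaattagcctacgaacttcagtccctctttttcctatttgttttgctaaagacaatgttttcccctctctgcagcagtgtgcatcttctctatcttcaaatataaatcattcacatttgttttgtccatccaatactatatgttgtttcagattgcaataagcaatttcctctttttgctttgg
Klra9 (chr6:130193113-130193362, minus strand): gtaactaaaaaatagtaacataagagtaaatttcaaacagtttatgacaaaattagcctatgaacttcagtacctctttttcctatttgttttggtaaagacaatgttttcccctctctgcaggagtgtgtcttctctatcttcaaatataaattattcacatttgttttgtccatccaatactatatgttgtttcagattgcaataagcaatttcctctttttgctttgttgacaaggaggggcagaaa
GGAAG was searched on both strands of these 250 bases, with overlapping matches counted. A GGAA core followed by another base was not counted, so a stretch without a match can still hold GGAA. It was present in 7 of 23 Klr promoters (30.4%), against 17193 of 27025 promoters of all genes in the RefSeq table (63.6%). Klrb1c held 5 matches and Klrb1a held 2, while the promoters of Klra17, Klra2, Klra3 and Klra9 held none. Klrb1, which starts in the same bin as Klrb1c, held 0, Klrb1b held 2 and Klrb1f held 1. Whether matches go with the change in contacts was not tested. The RefSeq starts of Klrb1c and Klrb1a lie 574 and 599 bases downstream of the GENCODE M21 starts that place the genes in bins. The stretches printed for these genes thus fall inside their GENCODE gene bodies. A match of these letters is a description of the sequence and not a binding site. The Klra3 and Klra9 promoters were 90% identical, Klrc3 and Klrc2 were 82.4% identical, and pairs of Klra promoters had a median identity of 61.6%, against 58.0% for pairs from different parts. Over whole bins, the share of 50-base words that occur once in the genome was 48.7% to 83.8% in the Klra part, 73.5% to 96.6% in the Klrc/Klrk part and 74.5% to 87.6% in the Klrb part.

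Contacts were uneven along the cluster in every library. The bin just distal to Klra2, which holds Styk1 (a kinase-like receptor gene) and Ybx3 (a cold shock protein gene) at chr6:131299785-131399936, contacted the Klrc/Klrk bins many times more often than the distance between them predicts. This bin was chosen after its values were seen. The observed contacts, divided by the mean of all autosomal bin pairs at the same distance in the same library (contacts over expected), were 7.08 and 9.38 between this bin and the Klrc/Klrk part in Erg KO, 7.88 and 8.08 in the CreT control, and 7.75 and 6.42 in the Erg fl/fl control. Libraries of the groups overlapped, and the log2 difference was 0.12 (exact permutation test over 15 splits of 2 against 4 libraries, two-sided, p = 0.533). With the Klrb part, which lies farther away, the same bin reached 3.18 and 3.38 in Erg KO, 3.28 and 2.93 in the CreT control, and 3.43 and 3.24 in the Erg fl/fl control. With the bins between the Klrb and Klrc/Klrk parts it reached 4.64 and 5.49 in Erg KO, 6.31 and 5.75 in the CreT control, and 6.09 and 5.74 in the Erg fl/fl control. There both Erg KO libraries lay below every control (log2 difference -0.24, exact permutation p = 0.0667, adjusted p = 0.533). With the Klra part, which lies next to the Styk1 bin, the value was 1.62 and 1.69 in Erg KO, 1.43 and 1.51 in the CreT control, and 1.28 and 1.11 in the Erg fl/fl control. In all 6 libraries the Styk1 bin thus contacted the Klrc/Klrk part as a whole more, relative to distance, than the Klra part as a whole. Single Klra bins differed widely. By mean over libraries, the Klra17, Klra5, Klra6 and Klra8 bins stood at 5.62, 4.38, 3.71 and 3.12, and the Klrk1 and Klrc bin at 5.93. Klra bins nearer to the Styk1 bin, most of them without a Klr gene, stood at 0.82 to 2.81.

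**Figure D1:**
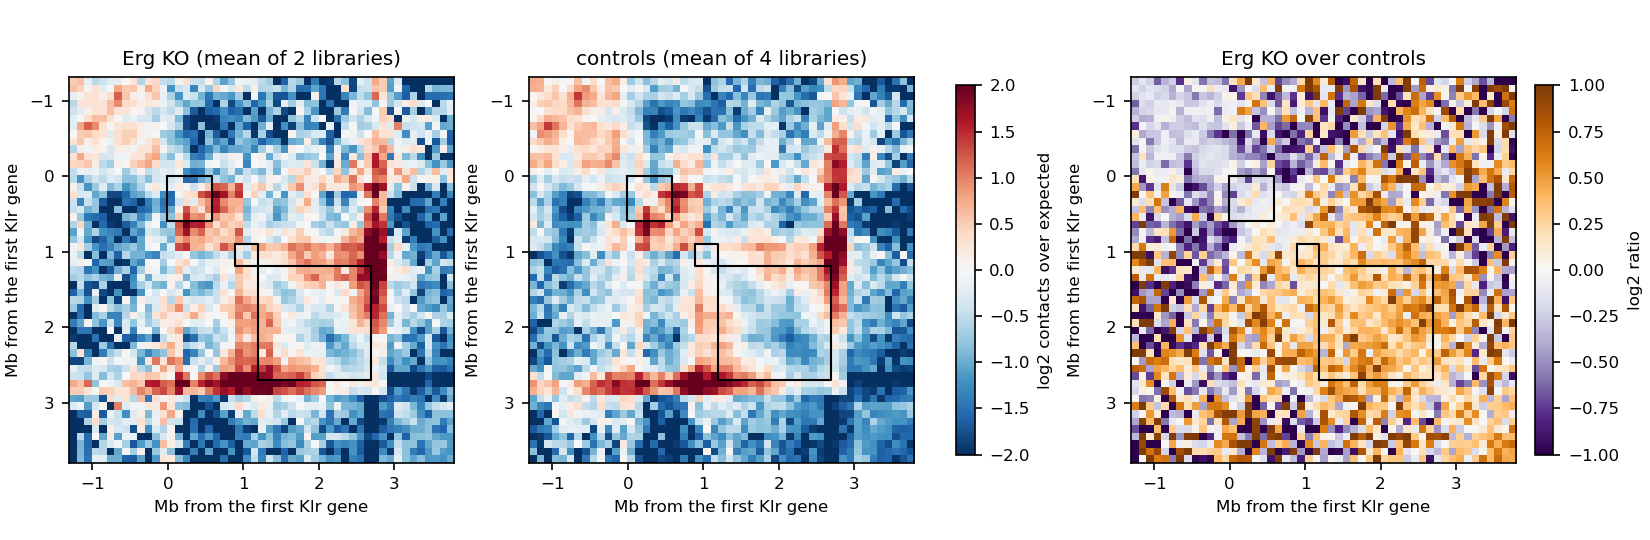
Contacts over expected (log2, colour) between bins of the Klr cluster and its flanks, by distance in Mb from the first Klr gene on both axes, for Erg KO (mean of 2 libraries), the controls (mean of 4 libraries) and their log2 ratio. Black squares mark the Klrb, Klrc/Klrk and Klra parts, from top left to bottom right. The dark red stripe near 2.7 Mb is the Styk1 bin, which reached the Klrc/Klrk part at 7.08 and 9.38 times expected in Erg KO and at 6.42 to 8.08 times in the controls, and its distal neighbour, at 3.73 and 4.94 times in Erg KO and 3.96 to 4.25 times in the controls.

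Its strongest partner was the bin of Klre1 and Klrd1. At a distance of 1.8 Mb this pair held 78 and 78 read pairs in Erg KO, 106 and 127 in the CreT control, and 82 and 71 in the Erg fl/fl control. Its sum of 542 ranked 2 of 23034 autosomal bin pairs at that distance, whose median was 43. At their own distances from the Styk1 bin, the bin of Klrk1 and the Klrc genes ranked 12 of 23058 pairs, the Klra17 bin 12 of 23104, and the bin of Klrb1 and Klrb1c 12 of 22848. The log2 change of the Klrd1 pair between Erg KO and both controls was -0.31 with a standard error (SE) of 0.16 (edgeR quasi-likelihood test with Benjamini-Hochberg adjustment, adjusted p = 0.265), so a difference between genotypes was not shown. Farther on, from the bin at chr6:131500049-131599977, contacts with all parts of the cluster and the bins between them were only 0.386 to 1.42 times expected.

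Contacts within and between the parts were then compared between genotypes. Each value is a sum over whole cells in culture, so contact in more cells and more frequent contact per cell cannot be told apart. Within the Klra part, contacts over expected were 0.894 and 0.997 in Erg KO, 0.808 and 0.790 in the CreT control, and 0.756 and 0.687 in the Erg fl/fl control. Both Erg KO libraries lay above all 4 controls, with a log2 difference of 0.32 (p = 0.0667, the smallest that this permutation test can give with 15 splits, and adjusted p = 0.178 over the 8 pairs of regions compared). No result of this test can therefore reach 0.05. Between the Klrb and Klra parts, which lie at the 2 ends of the cluster, the values were 0.920 and 0.948 in Erg KO, 0.760 and 0.844 in the CreT control, and 0.739 and 0.742 in the Erg fl/fl control (log2 difference 0.28, p = 0.0667 and adjusted p = 0.178 by the same exact test). The Erg KO libraries again lay above all controls. Counted only over bins in which a Klr gene starts, the difference between the Klrb and Klra parts was 0.18, with groups that overlapped (exact p = 0.2), and within the Klra part it was 0.24.

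Within the Klrb part the order was not the same. Contacts over expected were 1.26 and 1.33 in Erg KO, 1.40 and 1.27 in the CreT control, and 1.41 and 1.38 in the Erg fl/fl control, so the groups overlapped (log2 difference -0.07, exact p = 0.333). Contact of the Klrb part with the proximal flank was 0.572 and 0.635 in Erg KO, 0.739 and 0.664 in the CreT control, and 0.715 and 0.778 in the Erg fl/fl control, lower in both Erg KO libraries than in any control (log2 difference -0.26, exact p = 0.0667, adjusted p = 0.178). The Klra part minus the Klrb part, as the log2 ratio of contact within each, was -0.50 and -0.42 in Erg KO, -0.79 and -0.69 in the CreT control, and -0.90 and -1.002 in the Erg fl/fl control (difference 0.39, exact p = 0.0667). That is the test of whether the ends of the cluster differed in their change.

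Contact among the CD94 and NKG2 genes of the Klrc/Klrk part was 1.04 and 1.15 times expected in Erg KO, 0.973 and 0.957 in the CreT control, and 0.927 and 0.742 in the Erg fl/fl control (log2 difference 0.29, exact p = 0.133). Between the Klrc/Klrk and Klra parts contacts were above expected in all 6 libraries, at 1.46 and 1.67 in Erg KO, 1.41 and 1.41 in the CreT control, and 1.31 and 1.11 in the Erg fl/fl control (log2 difference 0.26, exact p = 0.133). Klrb with Klrc/Klrk gave 1.10 and 1.24 in Erg KO, 1.05 and 1.10 in the CreT control, and 1.02 and 1.144 in the Erg fl/fl control, which overlapped (log2 difference 0.12, exact p = 0.267). The Klra part with the distal flank gave 0.863 and 0.893 in Erg KO, 0.737 and 0.778 in the CreT control, and 0.709 and 0.571 in the Erg fl/fl control (log2 difference 0.34, exact p = 0.133).

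**Figure D2:**
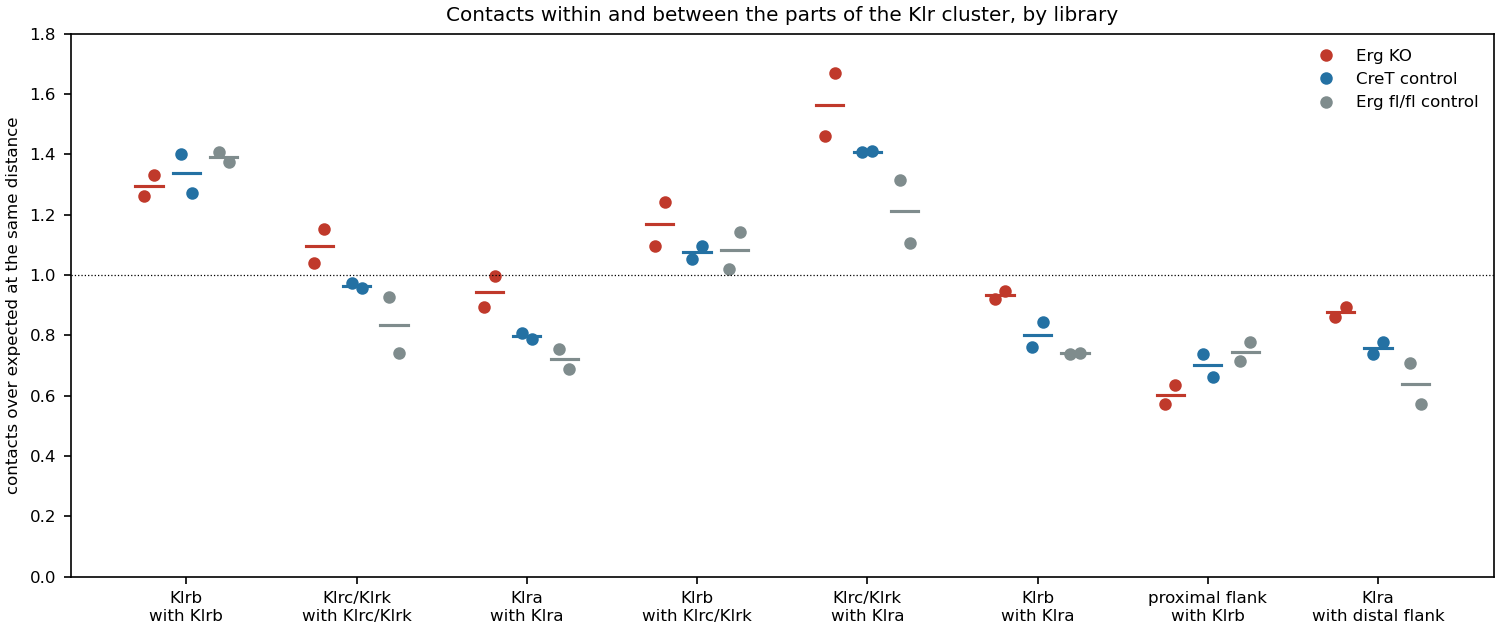
Contacts over expected (y axis, a ratio, with 1 dotted) within and between parts of the Klr cluster and with the flanks; each point is a library, and bars are group means (n = 2 each). Both Erg KO libraries stand above all 4 controls within Klra, within Klrc/Klrk and between Klrb and Klra. They also do so between Klrc/Klrk and Klra and between Klra and the distal flank. For the proximal flank with Klrb they stand below.

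These differences shrank when contacts were also divided by the coverage (the total contacts) of their bins. The log2 difference was then 0.08 within the Klra part, 0.22 between the Klrb and Klra parts, -0.07 between the proximal flank and the Klrb part and 0.08 between the Klra part and the distal flank, and of these only Klrb with Klra kept groups that did not overlap. Coverage itself moved with genotype: relative to the flanks, the Klra part stood at -0.43 on the log2 scale in both Erg KO libraries, at -0.56 in both CreT control libraries, and at -0.58 and -0.66 in the Erg fl/fl control (difference 0.16, exact p = 0.0667). Counted from contacts between chromosomes alone, the difference in the Klra part was 0.01 (exact p = 0.467). Coverage was low in Erg KO replicate 1 at a pair of Klra bins, 0.647 of the autosomal median in the Klra6 and Klra4 bin (0.754 to 0.802 in the other libraries) and 0.638 in the Klra8 and Klra9 bin (0.676 to 0.750). Without these bins, a choice made after seeing the data, the log2 difference within the Klra part was 0.35.

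Single pairs of bins were tested with edgeR over 742708 autosomal bin pairs, with group and sex in the model. Of the 120 pairs between bins with a Klr gene start, 3 rose and 2 fell in Erg KO relative to both controls, against 6.32% of all bin pairs called in either direction (3.04% rose and 3.28% fell). The share among Klr pairs was thus near the background. All 3 that rose lay in the Klra part and both that fell in the Klrb part. Their median log2 change was 0.11, against -0.01 over all bin pairs.

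Among the Klra receptors, the bin of Klra17 with itself held 193 and 193 normalised read pairs in Erg KO, 142 and 160 in the CreT control, and 144 and 144 in the Erg fl/fl control (log2 change 0.39, SE 0.11, adjusted p = 0.0167 by edgeR). The bin of Klra3 and Klra1 with the Klra2 bin, 900.8 kb away, held 36.8 and 50.3 in Erg KO, 19.8 and 26.98 in the CreT control, and 25.8 and 21.4 in the Erg fl/fl control (0.82, SE 0.25, adjusted p = 0.0303). Klra3 and Klra1 code for the inhibitory receptors Ly49C and Ly49A. The Klra2 bin with itself held 191 and 194 in Erg KO, 162 and 161 in the CreT control, and 160 and 136 in the Erg fl/fl control (0.33, SE 0.11, adjusted p = 0.0491). In each of the 3 pairs both Erg KO libraries exceeded every control.

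Of the NKR-P1 genes, the Klrb1a and Klrb1b bins, 200 kb apart, shared 29.3 and 23.9 normalised read pairs in Erg KO, 41.9 and 38.5 in the CreT control, and 35.1 and 59.1 in the Erg fl/fl control (log2 change -0.77, SE 0.25, adjusted p = 0.0446 by edgeR). The bin of Klrb1 and Klrb1c with the Klrb1f bin, 300.1 kb away, held 52.8 and 60.2 in Erg KO, 75.2 and 74.6 in the CreT control, and 71.0 and 91.8 in the Erg fl/fl control (-0.54, SE 0.18, adjusted p = 0.0493). Both Erg KO libraries lay below every control in these pairs. The next 5 pairs by p did not pass (adjusted p 0.0542 to 0.0685). They were the Klrk1 and Klrc bin with the Klra3 and Klra1 bin (0.70), the Klrd1 bin with the Klri and Klrh1 bin (0.41), the Klra3 and Klra1 bin with itself (0.37), the Klri and Klrh1 bin with the Klra17 bin (0.36) and Klrb1b with Klrb1f (-0.30).

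The most read pairs of bins, which the same edgeR fit did not call, gave the level of contact for each pair of parts. Klrb1f with its neighbour Klrb1-ps1 held 293 and 294 normalised read pairs in Erg KO, 267 and 238 in the CreT control, and 326 and 287 in the Erg fl/fl control (log2 change 0.09, SE 0.09). The Klrk1 and Klrc bin with the Klri and Klrh1 bin held 148 and 197 in Erg KO, 146 and 145 in the CreT control, and 136 and 115 in the Erg fl/fl control (0.29, SE 0.12). Klra17 with Klra5 held 144 and 158 in Erg KO, 121 and 133 in the CreT control, and 130 and 117 in the Erg fl/fl control (0.26, SE 0.12). In the last 2 of these pairs, both of neighbouring bins, each Erg KO library lay above every control, though neither pair passed (adjusted p = 0.145 and 0.232). Leaving out a library moved the change of the Klrk1 and Klrc bin with the Klri and Klrh1 bin between 0.06 and 0.74. Across parts, the Klrb1b bin with the Klrd1 bin held 51.5 and 67.2 in Erg KO, 61.4 and 54.1 in the CreT control, and 53.1 and 79.4 in the Erg fl/fl control (-0.18, SE 0.19), with groups that overlapped. The Klrb1c bin with the Klra17 bin held 16.96 and 22.04 in Erg KO, 12.7 and 26.5 in the CreT control, and 14.6 and 15.5 in the Erg fl/fl control (0.11, SE 0.34), again with overlap.

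Over all 359 tested pairs inside the cluster, bins without a Klr gene included, 20 rose and 6 fell, a share near the 6.32% of all bin pairs, with a median log2 change of 0.19. Of those that rose, 18 lay within the Klra part, with log2 changes of 0.33 to 1.00, and the change was above 0 in 109 of 120 pairs there (median 0.34). Of those that fell, 2 lay within the Klrb part and 3 joined it to the bins that follow it. Pairs that joined the cluster to its flanks had a median of -0.12, with 1 that rose and 9 that fell of 303, a share below that of all bin pairs. Against the CreT control alone none of the 120 Klr pairs passed edgeR (3.32% of all pairs did, with 1.68% that rose and 1.64% that fell; at an unadjusted p under 0.05, 10 rose and 5 fell), and against the Erg fl/fl control alone 3 rose and none fell (4.6% of all pairs, with 1.83% that rose and 2.77% that fell; 20 and 6 at an unadjusted p under 0.05). Of all 742708 bin pairs, 55383 rose and 57782 fell against the CreT control at an unadjusted p under 0.05 by edgeR. Against the Erg fl/fl control 57124 rose and 68598 fell at that threshold. The comparisons share the Erg KO libraries. Between the 2 controls none of the Klr pairs passed (7 higher and 3 lower in the CreT control at an unadjusted p under 0.05), and 1 of all bin pairs did (0.000135%). Of all bin pairs, 22669 were higher and 21676 lower in the CreT control at the unadjusted threshold.

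Calls of single pairs were lost with fewer libraries, and not for Klr pairs alone. Leaving out either Erg KO library or either Erg fl/fl library left no call among all 742708 bin pairs. With CreT control replicate 1 left out no Klr pair passed, and with replicate 2 left out 2 rose. The log2 changes moved less for Klra17 with itself (0.34 to 0.43) than for the Klra3 and Klra1 bin with Klra2 (0.57 to 1.32) and for Klrb1a with Klrb1b, where they ran from -1.40 without Erg KO replicate 1 to -0.36 without Erg KO replicate 2. Erg KO and the Erg fl/fl control each had 1 male library, so without either of these the sex term took up the other, and both omissions leave in effect the 4 female libraries. With offsets that also divide by coverage the median of all bin pairs moved to -0.43, and 0 Klr pairs rose and 9 fell (351 and 57069 of all 742708 bin pairs). Relative to that shift the median of the Klr pairs was 0.12, and that of the pairs from cluster to flanks was -0.20.

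Insulation was measured as the log2 mean count between the 5 bins on one side of a bin and the 5 on the other, relative to the chromosome. A low score marks a place that few contacts cross. In the window, the lowest mean score, -1.78, was at the bin of the bitter taste receptors Tas2r130 to Tas2r114 at chr6:131599974-131699887, beyond the Styk1 bin, with -1.89 and -1.59 in Erg KO, -1.65 and -1.90 in the CreT control, and -1.64 and -2.04 in the Erg fl/fl control. From this bin on, bins of the distal flank had a low mean coverage, 0.535 to 0.792 of the autosomal median, and the bin just before it stood at 0.553. Among Klr bins the lowest was that of Klrb1 and Klrb1c, at -0.95 and -1.02 in Erg KO, -0.54 and -0.79 in the CreT control, and -0.57 and -0.06 in the Erg fl/fl control. It lies close to the border with the proximal flank, and it was deeper in both Erg KO libraries than in any control (log2 change -0.55, SE 0.13, adjusted p = 0.00557 by limma). It passed whichever library was left out, at -0.91 without Erg KO replicate 1 and -0.34 without its replicate 2.

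The insulation score fell in 4 of 15 Klr bins and rose in 2 (limma, group and sex in the model), against 65.8% of all bins called in either direction (39.1% rose and 26.7% fell). The Klr share lay below the background. The 4 that fell were all NKR-P1 bins: Klrb1a (-0.51, SE 0.09), Klrb1 and Klrb1c (above), Klrb1b (-0.51, SE 0.08) and Klrb1f (-0.25, SE 0.08). The 2 that rose were Klra bins, that of Klra8 and Klra9 (0.28, SE 0.10, adjusted p = 0.0403) and that of Klra2 (0.27, SE 0.08, adjusted p = 0.0163). Klra8 codes for Ly49H, the activating receptor that confers resistance to mouse cytomegalovirus in C57BL/6 mice. Its bin scored 0.51 and 0.71 in Erg KO, 0.45 and 0.43 in the CreT control, and 0.38 and 0.10 in the Erg fl/fl control.

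None of the 3 Klrc/Klrk bins passed, with changes between 0.06 and 0.13. The deepest of them was the Klre1 and Klrd1 bin, which scored -0.44 and -0.13 in Erg KO, -0.36 and -0.32 in the CreT control, and -0.55 and -0.40 in the Erg fl/fl control. A dip at this bin was thus present in all 6 libraries, with groups that overlapped. Counting bins without a Klr gene, 5 of 6 in the Klrb part fell and 10 of 15 in the Klra part rose. The mean score of the Klra part minus that of the Klrb part was 0.11 and 0.15 in Erg KO, -0.33 and -0.24 in the CreT control, and -0.48 and -0.92 in the Erg fl/fl control (difference 0.62, exact permutation p = 0.0667).

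**Figure D3:**
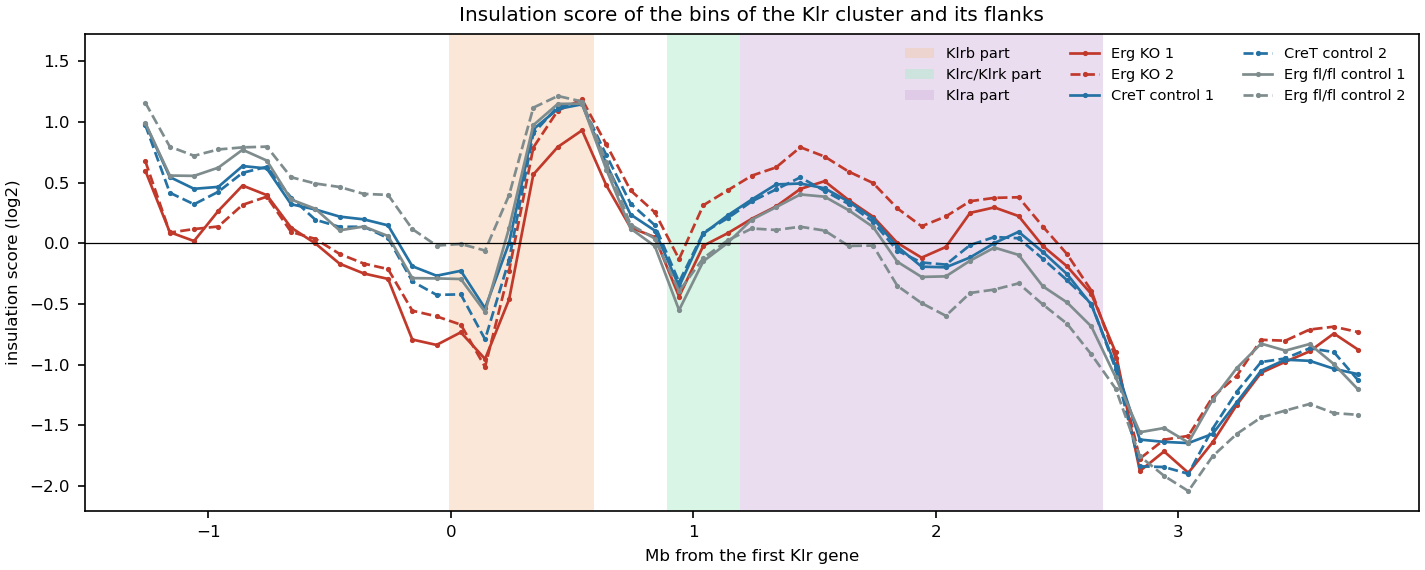
Insulation score (y axis, log2 relative to the chromosome) of each bin of the Klr cluster and its flanks, by distance in Mb from the first Klr gene; each line is a library, and shading marks the parts. The Erg KO libraries lie lowest around the Klrb1c bin, at -0.95 and -1.02, and all 6 libraries fall to their minimum beyond the cluster, around 3 Mb.

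Against the CreT control alone the same 4 NKR-P1 bins fell and no Klr bin rose (54.9% of all bins called, with 33.6% that rose and 21.3% that fell). Against the Erg fl/fl control alone 4 fell and 6 rose (63.1% of all bins, with 37.8% that rose and 25.3% that fell). Between the controls no bin was called (0.0%; at an unadjusted p under 0.05, 4 Klr bins were higher in the CreT control). The share of all bins at the unadjusted threshold is not given here. The number of Klr bins that rose was 9 when replicate 1 of Erg KO was left out and 9 when replicate 1 of the Erg fl/fl control was. It was 0, and 5 fell, when the male library of either genotype was left out, which is the same fit to the 4 female libraries. The change of the Klra8 and Klra9 bin was then 0.10, against 0.58 without replicate 1 of Erg KO. The share of all bins called in fits with a library left out, or after division by coverage, is not given here. These counts of Klr bins therefore have no background beside them. After division by coverage 1 fell and 0 rose.

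The compartment score separates open, gene-rich (positive) from closed, gene-poor (negative) chromatin, in units of its standard deviation over a chromosome. By the means of its parts it was highest in the cluster, in every library, over the Klrb part and the 3 bins after it, and lower over the Klrc/Klrk and Klra parts. The Klrb part had a mean score of 0.94 and 1.06 in Erg KO, 1.108 and 1.116 in the CreT control, and 0.98 and 0.87 in the Erg fl/fl control. Next to it, the Klrc/Klrk part had 0.36 and 0.79 in Erg KO, 0.78 and 0.83 in the CreT control, and 0.44 and 0.21 in the Erg fl/fl control. Scores of the Klra part lay near 0, at -0.15 and 0.15 in Erg KO, 0.06 and 0.07 in the CreT control, and -0.16 and -0.30 in the Erg fl/fl control. In the Klrc/Klrk and Klra parts the Erg KO replicates lay far apart, the CreT control replicates close together, and Erg KO overlapped with the controls.

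The Klrb part exceeded the Klra part by 1.07 ± 0.09 (SD, n = 6 libraries; higher in 6 of 6, exact sign-flip permutation test, two-sided, p = 0.03125, the smallest it can give). The whole cluster minus the distal flank was 1.09 ± 0.17, minus the proximal flank -0.31 ± 0.26, and minus both flanks together 0.39 ± 0.21 (SD, n = 6, exact p = 0.03125 each). With flanks of 500 kb, the difference from both together was 0.10 (exact p = 0.188). Between Erg KO and the controls these differences had an exact permutation p of 0.267 to 0.800.

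**Figure D4:**
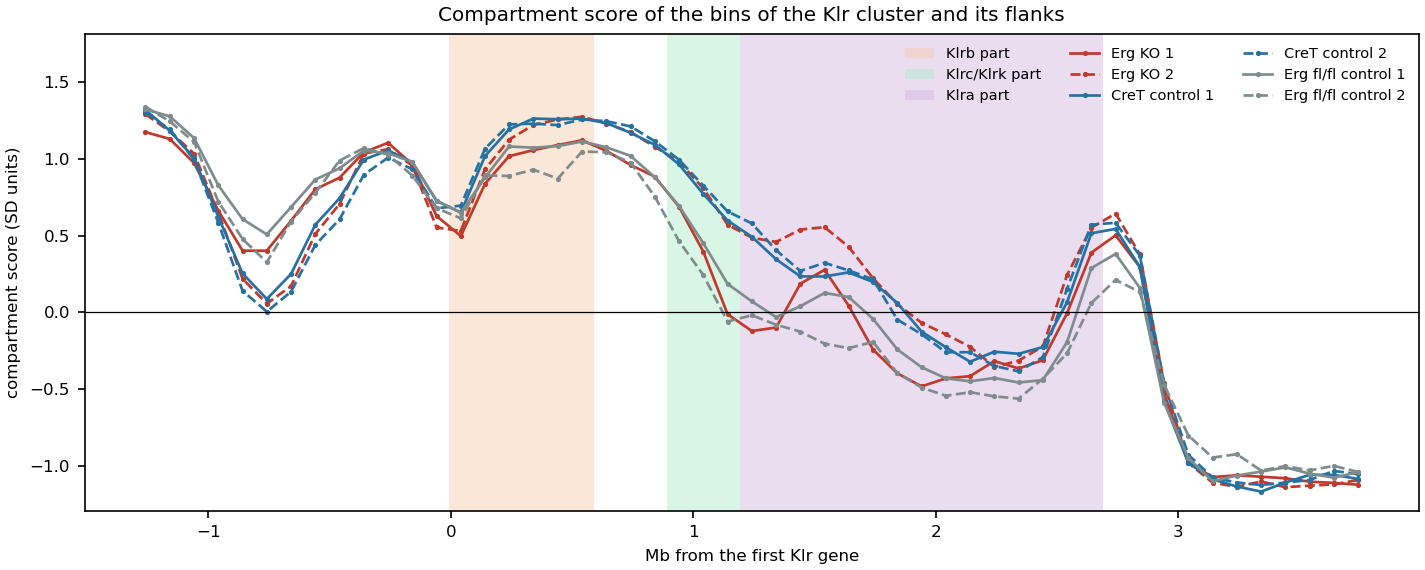
Compartment score (y axis, in units of its standard deviation over the chromosome) of each bin of the Klr cluster and its flanks, by distance in Mb from the first Klr gene; each line is a library, and shading marks the parts. All 6 libraries step down from the Klrb part (0.87 to 1.116) through Klrc/Klrk to Klra, and over these last parts the lines of the CreT control lie together and those of Erg KO lie apart.

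No Klr bin passed in the compartment score, in any of the 4 comparisons (limma; 2.45% of all bins were called for Erg KO against both controls, with 1.24% that rose and 1.21% that fell, and 0.0% in the other 3). At an unadjusted p under 0.05, for which the share of all bins is not given here, 8 Klr bins were higher in the CreT control than in the Erg fl/fl control. For Erg KO against both controls there was 1, the Klrb1a bin, which scored 0.50 and 0.53 in Erg KO, 0.65 and 0.70 in the CreT control, and 0.65 and 0.61 in the Erg fl/fl control (change -0.14, SE 0.04, adjusted p = 0.104). Its Erg KO values lay below all controls. The largest positive change was in the Klra8 and Klra9 bin, with 0.28 and 0.55 in Erg KO, 0.23 and 0.32 in the CreT control, and 0.13 and -0.21 in the Erg fl/fl control (0.30, SE 0.13, adjusted p = 0.220), where the groups overlapped. The counts that follow, from other fits, have no share of all bins from the same fit beside them. With replicate 1 of Erg KO left out, 11 of the 15 Klr bins rose and 0 fell, whereas over the female libraries alone (without replicate 2 of Erg KO or of the Erg fl/fl control) 0 rose and 5 fell, so the direction depended on the library. Without replicate 1 of the Erg fl/fl control 6 rose and 1 fell, and without smoothing 2 bins were called.

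Local contacts are the summed read pairs of a bin with bins 200 kb to 2 Mb away. They fell in 3 of 15 Klr bins and rose in 6 (edgeR quasi-likelihood test), against 67.6% of all bins called in either direction (34.3% rose and 33.2% fell), so the share of Klr bins called was near the background. The 3 that fell were Klrb1a (log2 change -0.31, SE 0.08), Klrb1 with Klrb1c (-0.30, SE 0.06) and Klrb1b (-0.15, SE 0.06). Those that rose were the Klri and Klrh1 bin (0.20, SE 0.07) and 5 bins of Ly49 genes: Klra17 (0.19, SE 0.08), Klra5 (0.27, SE 0.07), Klra7 with Klra10 (0.31, SE 0.07), Klra3 with Klra1 (0.36, SE 0.07) and Klra2 (0.18, SE 0.07).

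The mean local contacts of a bin in the Klra part, in CPM (scaled to the same sum of local read pairs over all kept bins in each library), were 43.1 and 47.6 in Erg KO, 38.1 and 38.6 in the CreT control, and 36.4 and 31.0 in the Erg fl/fl control, and the groups did not overlap. In the Klrb part they were 43.4 and 47.7 in Erg KO, 47.5 and 46.7 in the CreT control, and 47.0 and 48.1 in the Erg fl/fl control, which overlapped. As the log2 ratio of Klra over Klrb this was -0.01 and 0.00 in Erg KO, so that both parts were on a level, against -0.32 and -0.28 in the CreT control and -0.37 and -0.63 in the Erg fl/fl control (difference 0.39, exact permutation p = 0.0667). The bin of Klre1 and Klrd1 (-0.02, SE 0.06, adjusted p = 0.830 by edgeR) and the Klrk1 and Klrc bin (0.11, SE 0.07, adjusted p = 0.159) did not pass. Against the CreT control alone 2 Klr bins rose and 3 fell (60.4% of all bins called, with 30.2% that rose and 30.2% that fell), and against the Erg fl/fl control alone 9 rose and 2 fell (63.5%, with 32.0% that rose and 31.5% that fell). For the counts over fewer libraries that follow, the share of all bins is not given. Over the female libraries alone, that is without either male library, 2 rose, the bins of Klra7 with Klra10 and of Klra3 with Klra1, and the change of the Klra17 bin was 0.03, against 0.49 without Erg KO replicate 1, where 8 rose.

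**Figure D5:**
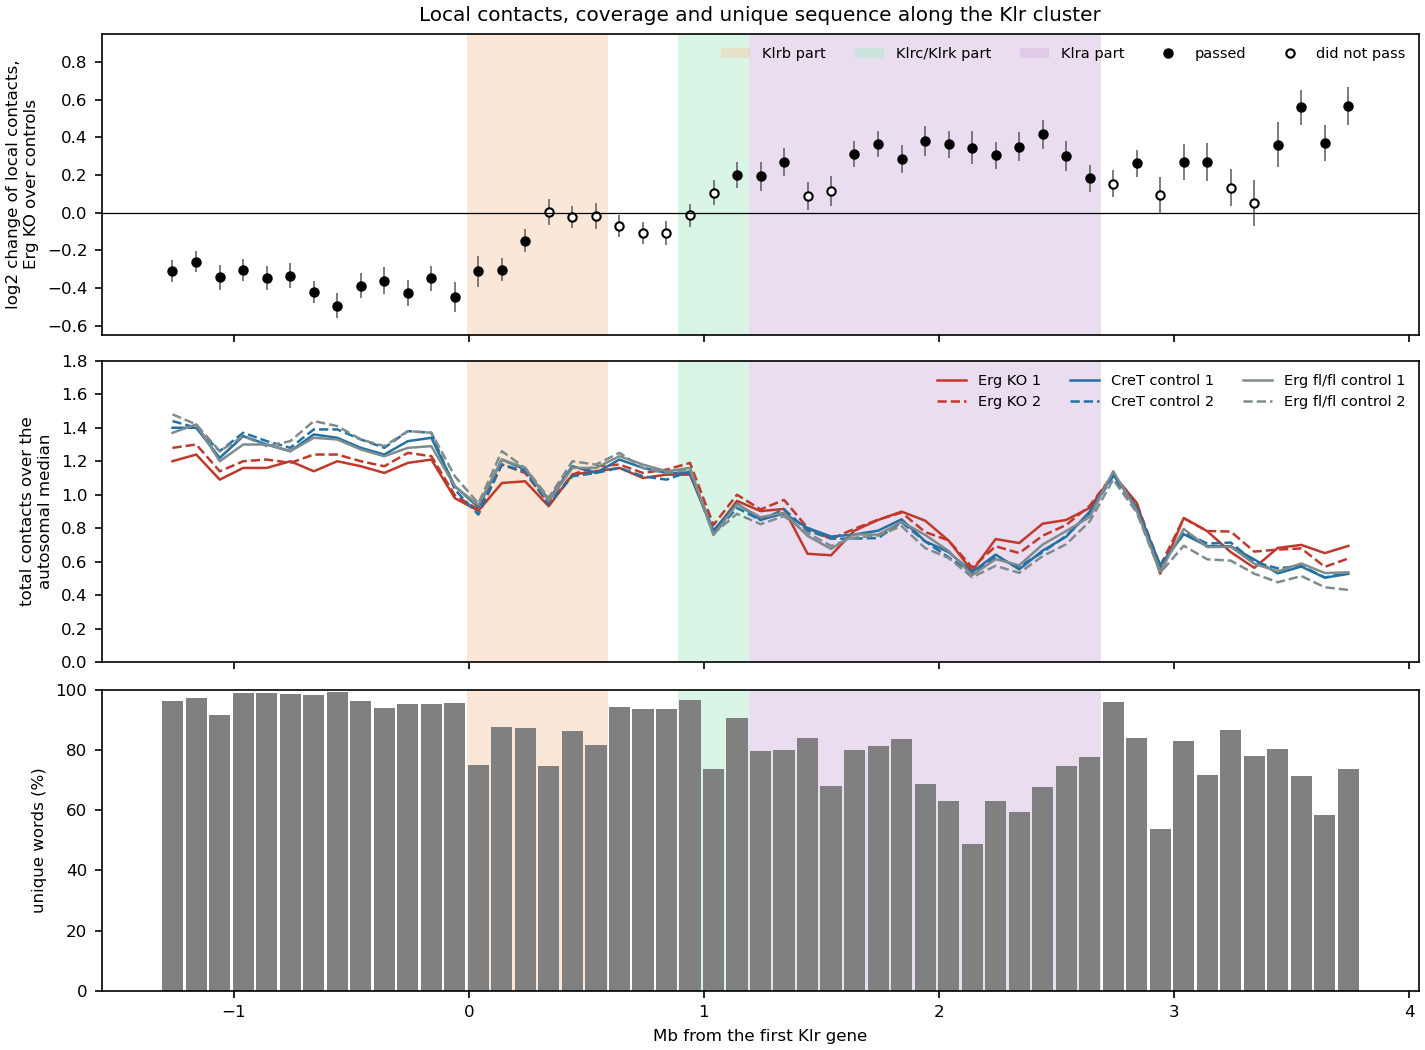
Along the Klr cluster, by distance in Mb from the first Klr gene: the log2 change of local contacts in Erg KO over the controls (top; bars are standard errors, filled points passed the edgeR test), total contacts over the autosomal median in each library (middle), and the share of 50-base words that are unique in the genome in percent (bottom). The change runs from -0.31 at Klrb1a to 0.36 at Klra3 and Klra1, and unique sequence is lowest, at 48.7%, inside the Klra part.

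A gradient of the same direction was present over all autosomal bins. Over all bins with a compartment score above 0.5 in the controls, the median change in local contacts was -0.18 (9002 bins), over bins from -0.5 to 0.5 it was 0.03 (4833 bins), and over bins below -0.5 it was 0.31 (9816 bins). The medians of the parts, given beside these without a test, were -0.02 in the Klrb part, 0.20 in the Klrc/Klrk part and 0.36 in the Klra part. For insulation the medians over all bins were -0.21, 0.05 and 0.35 in the same order of score, and those of the parts were -0.37, 0.14 and 0.29. Over bins, the change in local contacts correlated with the control compartment score at r = -0.74 (n = 23651), and within the cluster at r = -0.86 (n = 27). Neighbouring bins share contacts and are not independent, so these are descriptions. What part of the change in the Klr cluster goes with its compartment was not tested.

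Genes that act with the Klr receptors were taken from 7 lists written by role, 61 genes in 54 bins. In local contacts 33 of 54 bins fell and 2 rose, against 33.2% and 34.3% of all bins, and in insulation 30 of 53 fell and 2 rose, against 26.7% and 39.1%, with median log2 changes of -0.22 and -0.32 against 0.01 and 0.08 over all bins. None passed in the compartment score (limma; at an unadjusted p under 0.05, 1 was higher and 10 were lower). The share of all bins at the unadjusted threshold is not given here. Over all bins with a control compartment score above 0.5, the change was above 0 in 19.75% for local contacts and in 17.45% for insulation. The compartment scores of the list bins are not given here. Whether their changes go with their compartment was not tested.

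Among the adapters and signalling genes of activating and inhibitory receptors, 8 of 9 bins fell in local contacts, against 33.2% of all bins. Tyrobp (DAP12, the adapter of activating Ly49 receptors) and Hcst (DAP10, the adapter of NKG2D) share a bin, which changed by -0.53 (SE 0.07), and Lck changed by -0.56 (SE 0.06). The phosphatase Ptpn11 (SHP-2), which inhibitory receptors recruit, changed by -0.64 (SE 0.06), and Ptpn6 (SHP-1) by -0.35 (SE 0.06). Zap70 (-0.42), Vav1 (-0.36), Syk (-0.27) and Inpp5d (-0.26) also fell, while Fyn did not pass (-0.07).

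Of the ligands, H2-T23, the nonclassical class I molecule read by CD94 with NKG2A, fell in insulation (-1.05, SE 0.10) and in local contacts (-0.68, SE 0.08), and so did the Ly49 ligands H2-K1 (-0.57 and -0.59) and H2-D1 (-0.55 and -0.55) and the NKG2D ligand Ulbp1 (-0.39 and -0.14). Raet1d, Raet1e, H60b and H60c, also NKG2D ligands, did not pass in either. Among transcription factors of NK cells, Runx3 (-0.66, SE 0.06), Tbx21 (T-bet, -0.57, SE 0.06), Zfp683 (-0.57, SE 0.06), Tcf7 (-0.47, SE 0.06), Eomes (-0.31, SE 0.07), Nfil3 (-0.20, SE 0.06) and Id2 (-0.13, SE 0.06) fell in local contacts, and Gata3 rose (0.22, SE 0.06). Tox rose in insulation only (0.30, SE 0.10), and Ets1 passed in neither.

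Of the other receptors of NK cells, 6 of 9 bins fell and 1 rose in each measure, against 33.2% and 34.3% of all bins in local contacts and 26.7% and 39.1% in insulation. Cd160 fell in insulation (-0.88, SE 0.13) and in local contacts (-0.51, SE 0.07), and Il2rb (-0.49), Slamf7 (-0.43), Cd244a (-0.33), Il15ra (-0.25) and Fcgr3 (-0.22) fell in local contacts, whereas Cd226 rose in insulation (0.67, SE 0.10) and in local contacts (0.41, SE 0.10). Ncr1 and Tigit did not pass. Of the effector genes, Nkg7 (-0.48), Gzmb (-0.47), Prf1 (-0.45), Ccl5 (-0.28) and Ifng (-0.15) fell in local contacts, and Gzma, Fasl and Xcl1 did not pass. The lectin genes inside the complex lie among the Klr genes. Clec2h is in the bin of Klrb1a and Clec2i in that of Klrb1b, which fell in both measures, and Clec2g (-0.35) and Clec2f (-0.25) fell in insulation only. Cd69, Clec12a and Clec9a, between the Klrb and Klrc/Klrk parts, passed in neither. Klrg1 and Klrg2, which lie on chromosome 6 outside the complex, changed by -0.13 and -0.22 in local contacts, of which the second passed (adjusted p = 0.00266 by edgeR).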

How the data were processed

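The matrices of raw counts deposited by the authors give read pairs for each pair of bins of about 100 kb. Per the labels and the authors' methods, mm10 was the genome of the alignment, duplicates, dangling ends and overlong fragments were removed, and the rest counted in bins. The authors' own comparisons were not used here. The matrices summed to 29014581 to 68085468 read pairs a library, which sets the precision of each value. These sums lie below the range of valid read pairs in the authors' methods, for a reason not given in the sources used here.

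Genes were placed by their start (GENCODE M21). Bins with 0.3 to 3 times the median autosomal coverage were kept (23651 of 24067). Bin pairs with at least 10 read pairs and 5 times the median between chromosomes in blocks of 500 kb, not rescaled for the area of a block, were tested, 742708 in all. Counts were fitted with edgeR 4.0.16 in R 4.3.3 (quasi-likelihood, group and sex, loess offsets over abundance for bin pairs, TMM for local contacts), insulation and compartment scores with limma 3.58.1, and adjusted p-values (Benjamini-Hochberg, over all features) had a threshold of 0.05. DESeq2 1.42.0 was an alternative. Local counts were taken as log2 CPM with a pseudocount of 0.5 where parts were averaged. Compartment scores came from the first 3 components of contacts smoothed over 3 bins. Values with 1 number a library were compared by exact permutation (Python 3.11.15, scipy 1.17.1), and identities and word counts came from Biopython 1.88 and numpy 2.4.6. The scripts' tests were checked on simulated data. Members and gene lists were chosen with earlier results of these data known. Bin pairs named were the 10 of smallest p and the most read pair for each pair of parts. Replicates were biological per the authors' methods, and p-values measure the spread between these libraries.

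Alternatives were TMM, coverage offsets, no sex term, a replicate block, a count minimum of 20 in place of the abundance filter, other windows, flanks and expected values, thinning to equal depth, and leaving out each library. Coverage over the autosomal median and the contact sums without the Klra6 to Klra9 bins were added after seeing the data.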

Additional observations from a re-analysis of the deposited data

How the results depend on the processing

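Of the Klr bin pairs, 3 rose and 2 fell in Erg KO. TMM gave 6 and 1, coverage offsets 0 and 9, DESeq2 0 and 0 (it gave an adjusted p for 66 of the 120), no sex term left 0 that fell, and 1 fell when a minimum of 20 replaced the abundance filter. Over the whole cluster, 20 rose and 6 fell: coverage offsets gave 0 and 42, no sex term 12 and 1, DESeq2 1 and 0, and TMM 3 that fell. Of all 742708 bin pairs, 351 rose and 57069 fell with coverage offsets, 23974 and 17658 with TMM, and 10717 and 11607 without a sex term. With DESeq2 1899 rose and 363 fell of the 123532 that were given an adjusted p. Replicate numbers did not pair the samples across all groups. The correlation of deviations of same-numbered libraries was -0.175 between Erg KO and the CreT control and -0.389 between the controls. It was 0.54 between Erg KO and the Erg fl/fl control, where replicate 1 was female and replicate 2 male in both. Replicate number and sex cannot be told apart there. With the replicate number as a block, 0 Klr pairs fell, 10 and 1 pairs of the cluster rose and fell, and 0 Klr bins rose in insulation. In that fit 10396 of all 742708 bin pairs rose and 11498 fell, and the share of all bins is not given here.

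In insulation, where 2 Klr bins rose and 4 fell, division by coverage gave 0 and 1, and no sex term 0 that rose. In local contacts, where 6 rose and 3 fell, DESeq2 gave 3 that rose, and no sex term 3 and 1. In the compartment score, where none was called, 2 were without smoothing. The share of all bins called in each of these fits is not given here, so these counts of Klr bins have no background beside them. The cluster minus both flanks was 0.10 with 500 kb flanks (exact p = 0.188), and minus the proximal flank -0.19 without smoothing (exact p = 0.219).

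Directions that turned were contact within the Klrb part divided by coverage (0.0258), coverage of the Klrb part against 2 Mb flanks (0.00911) and of the Klrc/Klrk part between chromosomes (-0.0186). With coverage offsets, log2 changes of bin pairs turned for Klra17 with itself (-0.10), Klra2 with itself (-0.13), the Klra3 and Klra1 bin with itself (-0.26), the Klri bin with Klra17 (-0.13), Klrb1f with Klrb1-ps1 (-0.10), Klrb1c with Klra17 (-0.37), Klrk1 with the Klri bin (-0.13) and Klra17 with Klra5 (-0.21). In that fit the median of all bin pairs was -0.43, and each of these bin pair changes lay above it. The sign alone therefore does not place them below other bin pairs. The cause was not tested.

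Leaving out each library in turn (in the fits with sex, the male library of Erg KO or of the Erg fl/fl control leaves in effect the 4 female libraries) gave 0 to 2 Klr pairs that rose and 0 that fell, 0 to 13 and 0 to 4 over the cluster, 0 to 9 Klr bins that rose and 3 to 5 that fell in insulation, 2 to 8 and 2 to 3 in local contacts, and 0 to 11 called in the compartment score (0 to 16 bins of the NK gene lists). The Klrb part minus the Klra part was then 1.05 to 1.10, and the cluster minus both flanks 0.35 to 0.45, minus the distal flank 1.06 to 1.141 and minus the proximal flank -0.36 to -0.25, each at the smallest exact p that 5 libraries allow, 0.0625. Coverage of the Klrb part changed by -0.0213 to 0.00888, and Klrb1c with Klra17 by -0.11 to 0.42, the lowest without CreT control replicate 1. The share of all bins called in each of these fits is not given here, so the counts of bins have no background beside them.

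The shallowest library held 29014581 read pairs, and pairs of bins over 1 Mb apart held few in each library, so a small change at that distance was not detectable. Every permutation between genotypes has a smallest p of 0.0667, or 0.03125 over all 6 libraries.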
